A study of Homo sapiens with 15 samples.

Results

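The comparison described here is the concentration step of tris(2-chloroisopropyl) phosphate (TCIPP), a chlorinated organophosphate flame retardant, in HepG2 cells. HepG2 is a human hepatocellular carcinoma line that keeps many hepatocyte functions. Members were chosen by library title: 3 libraries of cells kept with 25 µM TCIPP against 3 libraries of cells kept with 2.5 µM TCIPP, which are 6 of the 15 libraries of the series. All groups were treated for 72 h. The other 9 libraries are 3 with 0.1% DMSO, the solvent control, and 3 each with 25 and 250 µM of tris(2-chloroethyl) phosphate (TCEP), a related flame retardant whose chloroalkyl arms lack the methyl group that TCIPP carries. No genotype differs between the groups, and every library comes from the same tumour line, so the cells model liver tissue only as far as that line does. RNA was selected by poly-A tails, and reads over the exons of each gene were counted.

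Several regulatory programmes of liver cells frame the gene groups below. Hypoxia-inducible factor (HIF) is a transcription factor that is degraded when oxygen is ample and, when stable, raises genes of glycolysis, pH control and collagen processing. ATF4 is a transcription factor that is translated under amino acid shortage or endoplasmic reticulum stress and raises genes that make, import and charge amino acids. NRF2 raises genes that detoxify aldehydes and quinones and that make glutathione. The farnesoid X receptor (FXR) is the nuclear receptor for bile acids in hepatocytes.

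Total exon reads of the 6 TCIPP libraries ran from 5.35 to 26.8 M (megareads), and those of all 15 libraries spanned the same range. Each was made from a separately seeded, treated and extracted culture, and the replicate numbers 1, 2 and 3 recur in every group. Hepatocyte markers were present: all 12 had reads, and their summed level was 43229 to 46573 CPM (reads of a gene per megaread of the library) at 2.5 µM and 44248 to 51782 CPM at 25 µM. Of the markers of other cells, 7 of 11 fibroblast, 4 of 7 matched endothelial, 6 of 10 immune and 4 of 8 epithelial markers had at most 10 reads over all 15 libraries together.

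Of 12567 genes tested with the replicate number as a block, 484 (3.85%) passed an adjusted p of 0.05 between 25 and 2.5 µM (edgeR quasi-likelihood test, Benjamini-Hochberg adjustment). A total of 194 genes (1.54%) were higher and 290 (2.31%) were lower at 25 µM. At an unadjusted p of 0.05, 2061 genes passed. Values written below as a number ± its standard error (SE) are log2 fold changes, 25 minus 2.5 µM, so a negative value is lower at 25 µM. Without the block 0 genes passed the adjusted threshold, the smallest adjusted p was 0.0625, and 1358 genes had an unadjusted p under 0.05, so each call below rests on comparing libraries of the same number. The median log2 fold change was 0.38 among the genes called higher, -0.39 among those called lower and -0.00 over all genes tested. Only 12 of the higher and 16 of the lower genes changed by at least 1 on the log2 scale. All 194 higher genes and 288 of the 290 lower genes had the same sign in the 3 same-numbered pairs. Among all genes with a higher or lower mean at 25 µM, 2491 of 6243 and 2677 of 6324 did. The calls were made from these same pairs, so their equal signs are no separate evidence. The 3 libraries of one concentration did not overlap the 3 of the other in 103 of the higher and 189 of the lower genes. Among all genes with a higher or lower mean at 25 µM, 734 of 6243 and 826 of 6324 did not overlap. These were 5.84% and 6.57% of all genes tested (12.4% together). The calls rest on these same libraries, so their lack of overlap is no separate evidence either. Leaving out 1 library or 1 replicate number left between 78 and 317 calls. The lowest count came without replicate 3, and without the deepest library, 2.5 µM replicate 3, it was 135. Fitted with the 6 TCIPP libraries alone 807 genes were called, and with the 12 treated libraries, DMSO left out, 948. Of the 122 called genes named below, 25 stayed called in all 9 leave-outs, 82 in 1 to 8 of them and 15 in 0. The 15 were P4HA2, SLC16A3, CETP, LPIN2, MT-CYB, MT-ND4L, HSD17B7, MVK, FGA, SERPIND1, ATP5G2, ABCC2, CTSS, CHRFAM7A and TSPAN15. In bulk RNA, fewer cells of a kind and less RNA per cell cannot be told apart.

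**Figure D1:**
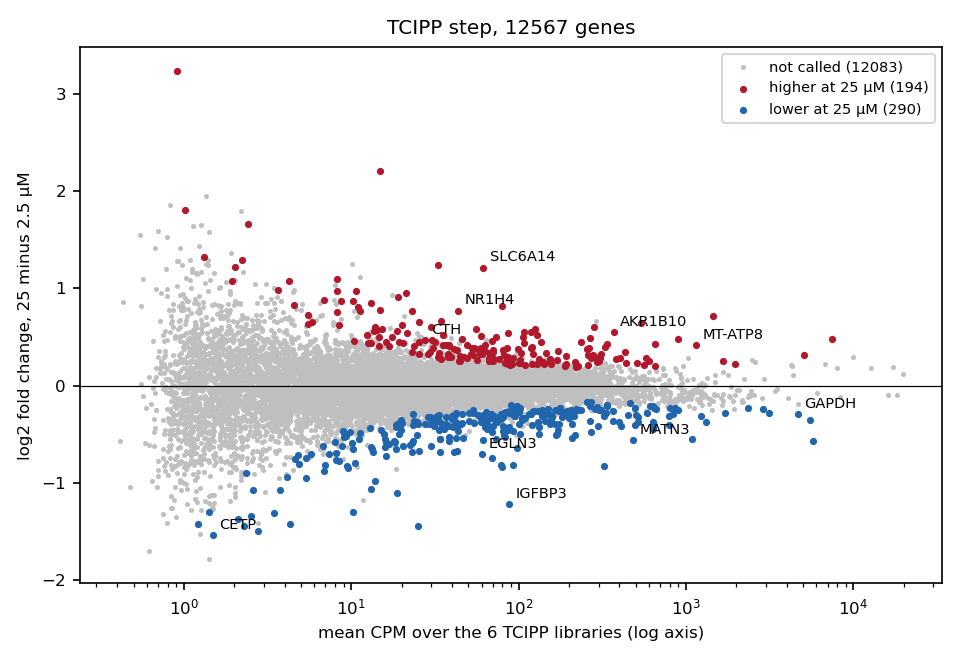
Log2 fold change of each gene between 25 and 2.5 µM TCIPP (vertical axis) against its mean CPM over the 6 TCIPP libraries (log axis). The 194 red and 290 blue points are the genes called higher and lower at 25 µM, and most lie within 1 log2 unit of 0.

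The smallest p belonged to IGFBP3 (ENSG00000146674, chr7:45951949-45961473), which encodes a secreted binding protein of insulin-like growth factors. Coordinates of genes are those of the files (hg19, GRCh37). Its level in replicates 1, 2 and 3 was 80.2, 175 and 109.5 CPM at 2.5 µM. At 25 µM it was 36.9, 86.9 and 38.02 CPM. Replicate 2 was the highest library in both groups, so the groups overlapped while every pair fell. The log2 fold change was -1.22 ± 0.085 (SE, edgeR adjusted p = 1.19e-06), and the gene stayed called in all 9 leave-outs. With DMSO the level was 30.4, 66.8 and 37.6 CPM, close to the 25 µM libraries of the same number. Among the other growth factor genes of the hepatocyte secreted list, IGF2, the fetal insulin-like growth factor, had a log2 fold change of -0.56 ± 0.098 (SE, edgeR adjusted p = 0.00377). IGFBP2, another binding protein, had -0.69 ± 0.14 (SE, edgeR adjusted p = 0.0132), and its 3 libraries at 25 µM all lay below the 3 at 2.5 µM.

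Genes of the hypoxia response list were lower at 25 µM. Of 34 members tested, 13 were called lower and 0 higher, against 2.31% and 1.54% of all genes. The median log2 fold change of the list was -0.26, with -0.00 over all genes. By role, 2 of 10 oxygen sensing and angiogenesis genes, 6 of 8 pH and matrix genes and 5 of 16 mitochondria and survival genes were called. DESeq2 and limma-voom with the same block also called 0 higher, and at an unadjusted edgeR p of 0.05 there were 19 lower and 2 higher. Over the leave-outs called members numbered 3 to 9, the fewest without replicate 3, and the median stayed between -0.25 and -0.20.

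EGLN3 (ENSG00000129521, chr14:34393437-34931980) encodes an oxygen-dependent prolyl hydroxylase that marks HIF for degradation and is itself a HIF target. Its level was 61.2, 89.7 and 74.3 CPM in replicates 1, 2 and 3 at 2.5 µM. At 25 µM the same replicates had 38.2, 53.8 and 46.01 CPM. The groups did not overlap, replicate 2 was highest in each, and the log2 fold change was -0.71 ± 0.075 (SE, edgeR adjusted p = 0.000114). CA9 (ENSG00000107159, chr9:35673853-35681156) encodes carbonic anhydrase 9, a membrane enzyme that controls pH outside the cell. It had 77.8, 96.6 and 86.6 CPM at 2.5 µM and 54.9, 57.7 and 63.6 CPM at 25 µM, again without overlap. Its log2 fold change was -0.55 ± 0.078 (SE, edgeR adjusted p = 0.000828), and the DMSO libraries, at 47.1, 66.5 and 57.3 CPM, all lay below the lowest library at 2.5 µM. Both genes stayed called in all 9 leave-outs.

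The collagen-modifying members were also called lower. PLOD1, a collagen lysyl hydroxylase, had a log2 fold change of -0.36 ± 0.056 (SE, edgeR adjusted p = 0.00149) and no overlap. P4HA1 and P4HA2, the catalytic subunits of collagen prolyl hydroxylases, had -0.20 and -0.27 with adjusted p-values of 0.0277 and 0.0411. LOX, which cross-links collagen, had -0.33 ± 0.082 (SE, edgeR adjusted p = 0.0302). ERO1L, an oxidase that drives disulfide formation in the endoplasmic reticulum, had -0.38 ± 0.070 (SE, edgeR adjusted p = 0.00553). The calls of P4HA1, P4HA2 and LOX were kept in 1, 0 and 1 of 9 leave-outs. BNIP3, a mitophagy receptor, had -0.26 ± 0.053 (SE, edgeR adjusted p = 0.0108), and PDK1, a kinase that inhibits pyruvate dehydrogenase, had -0.26 ± 0.061 (SE, edgeR adjusted p = 0.0224). These 2 calls were kept in 3 and 1 of 9 leave-outs. NDRG1, a stress-induced gene, had -0.40 ± 0.068 (SE, edgeR adjusted p = 0.00316).

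Promoter letters of members that moved together are shown for 2 genes whose windows hold the core hypoxia motif ACGTG. The stretches are the 150 bases upstream of the RefSeq start site (GRCh38.p14, from RefSeq), and capitals mark the motif, read on either strand, so it appears as CACGT in both.
CA9: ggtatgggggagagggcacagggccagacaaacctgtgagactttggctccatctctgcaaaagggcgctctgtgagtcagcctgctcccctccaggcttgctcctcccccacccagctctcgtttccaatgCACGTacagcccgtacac
ERO1L: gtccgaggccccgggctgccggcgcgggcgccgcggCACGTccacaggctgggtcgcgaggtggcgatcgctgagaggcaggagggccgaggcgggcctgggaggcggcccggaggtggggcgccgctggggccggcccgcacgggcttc
The CA9 stretch is chr9:35673778-35673927, plus strand, with the motif starting 18 bases upstream of the start site. The ERO1L stretch is chr14:52695559-52695708, minus strand, with the motif starting 114 bases upstream. Of the 13 called members, 11 had a window of 300 bases (250 before to 50 after the start), and 7 of these held ACGTG on either strand. That was 9 of 16 windows (56.3%), beside 57.9% of the 38 windows of all tested members and 21.4% of 35116 windows of all genes. A match is a description of letters and not a measured site.

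Glycolysis genes had a negative median too. Of 24 tested, 8 were called lower and 0 higher, against 2.31% and 1.54% of all genes, with a median log2 fold change of -0.22. DESeq2 and limma-voom also called 0 higher, and 18 lower and 0 higher had an unadjusted edgeR p under 0.05. SLC2A3, a high-affinity glucose carrier, had 1009, 1482 and 1365 CPM at 2.5 µM and 671, 1088 and 887 CPM at 25 µM in replicates 1, 2 and 3. Its log2 fold change was -0.55 ± 0.074 (SE, edgeR adjusted p = 0.000581), it fell in every pair, and replicate 2 at 25 µM lay above replicate 1 at 2.5 µM. GAPDH, the glyceraldehyde-phosphate dehydrogenase often used as a reference gene, had 4789, 5730.3 and 4992 CPM at 2.5 µM and 4187, 4447 and 3968 CPM at 25 µM. The GAPDH groups did not overlap and the log2 fold change was -0.30 ± 0.058 (SE, edgeR adjusted p = 0.00813). Of 9 leave-outs 3 kept the call, with an adjusted p of up to 0.077 without replicate 3. PFKL, the liver phosphofructokinase, had -0.29 ± 0.049 (SE, edgeR adjusted p = 0.00352), and PGK1, phosphoglycerate kinase, had -0.31 ± 0.058 (SE, edgeR adjusted p = 0.006). ENO1 and ENO2, the enolases, had -0.24 and -0.35 with adjusted p-values of 0.00984 and 0.00324. HK2, a hexokinase, had -0.37 ± 0.088 (SE, edgeR adjusted p = 0.0268), and SLC16A3, a lactate exporter, had -0.17 ± 0.047 (SE, edgeR adjusted p = 0.0476). The SLC16A3 call was kept in 0 of 9 leave-outs. Over the leave-outs the called members numbered 1 to 7, the fewest without replicate 1.

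**Figure D2:**
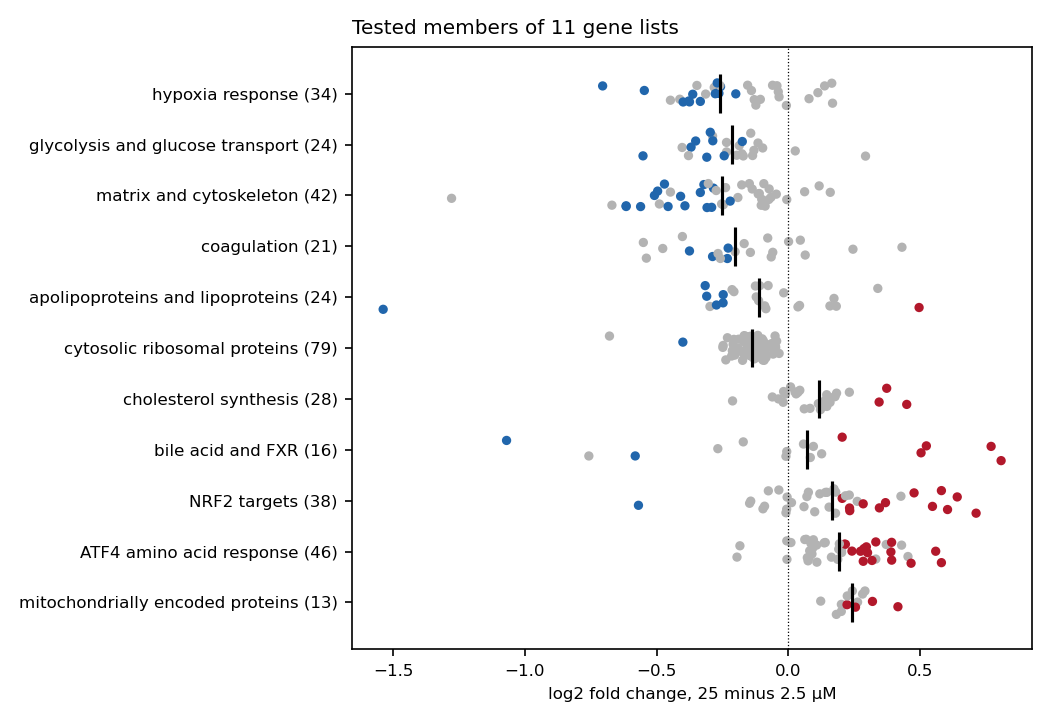
Log2 fold change between 25 and 2.5 µM TCIPP of the tested members of 11 gene lists (number tested in brackets). Red and blue points were called higher and lower, grey points were not called, and the bar is the list's median. Hypoxia, glycolysis and matrix medians lie at -0.26, -0.22 and -0.25, and ATF4, NRF2 and mitochondrially encoded medians at 0.19, 0.16 and 0.24.

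Matrix and cytoskeleton genes were also lower. Of 42 tested, 15 were called lower and 0 higher, against 2.31% and 1.54% of all genes, with a median of -0.25. DESeq2 called 14 lower and limma-voom 15, both called 0 higher, and 1 higher member had an unadjusted edgeR p under 0.05. The called members were 7 of 20 matrix genes and 8 of 22 genes of the cytoskeleton and adhesion. MATN3 (ENSG00000132031, chr2:20191872-20212455) encodes matrilin 3, a secreted matrix adaptor. Its level was 554, 601 and 575 CPM at 2.5 µM and 379.7, 399 and 393 CPM at 25 µM. The groups did not overlap, and the log2 fold change was -0.56 ± 0.064 (SE, edgeR adjusted p = 0.000145). It had the smallest unblocked adjusted p of all genes, 0.0625. FHL2, a LIM-domain cofactor, had -0.47 ± 0.063 (SE, edgeR adjusted p = 0.000567) and ANXA2, an annexin at the membrane, had -0.51 ± 0.064 (SE, edgeR adjusted p = 0.000384). KRT19, a keratin of simple epithelia, had -0.46 ± 0.059 (SE, edgeR adjusted p = 0.000411), and TAGLN, an actin-binding protein, had -0.50 ± 0.11 (SE, edgeR adjusted p = 0.0163). TAGLN is also on the fibroblast marker list, whose summed level ran from 54.9 to 60.7 CPM at 2.5 µM and from 49.5 to 66.1 CPM at 25 µM, with 4 of 11 markers at 0 reads. PDGFRB, a growth factor receptor on the same list, was called higher, at 0.63 ± 0.14 (SE, edgeR adjusted p = 0.0181). The median of the 4 tested fibroblast markers lay -0.05, -0.01 and -0.17 from the DMSO mean on the log2 scale at 2.5 µM and -0.44, -0.37 and -0.45 at 25 µM. Of the immune markers CD68, a lysosomal protein, was called lower, at -0.55 ± 0.099 (SE, edgeR adjusted p = 0.00471), with 5.39% unique reads, so its value is uncertain. The summed immune level was 4026 to 4395 CPM at 2.5 µM and 4385 to 4686 CPM at 25 µM, with 6 of 10 markers at 10 reads or fewer. KRT19 is on the epithelial list, whose sum was 564 to 585 CPM and 515 to 564 CPM with 3 of 8 markers at 0 reads. Their part in the result was not tested. Over the leave-outs called members numbered 4 to 11, the fewest without replicate 1 or replicate 3.

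Other secreted and growth-related genes were called lower. EDN1, the vasoconstrictor endothelin 1, had 27.9, 33.6 and 31.9 CPM at 2.5 µM and 16.8, 20.3 and 21.3 CPM at 25 µM, without overlap. Its log2 fold change was -0.67 ± 0.074 (SE, edgeR adjusted p = 0.000117). CYR61, a matricellular gene induced by YAP, had -0.84 ± 0.15 (SE, edgeR adjusted p = 0.00428), and CTGF, its relative, had -0.45 ± 0.11 (SE, edgeR adjusted p = 0.0387). These 3 and DUSP5, a phosphatase of ERK (-0.41, adjusted p = 0.0209), were the called members of 33 immediate early and growth response genes. That was 12.1% called lower and 0 higher, against 2.31% and 1.54% of all genes. EDN1, CYR61, CTGF and DUSP5 stayed called in 9, 8, 1 and 2 of 9 leave-outs. Unlike EDN1, the genes CYR61, CTGF and DUSP5 had overlapping groups. LOXL3, a lysyl oxidase relative, had -1.30 ± 0.17 (SE, edgeR adjusted p = 0.000444).

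**Figure D3:**
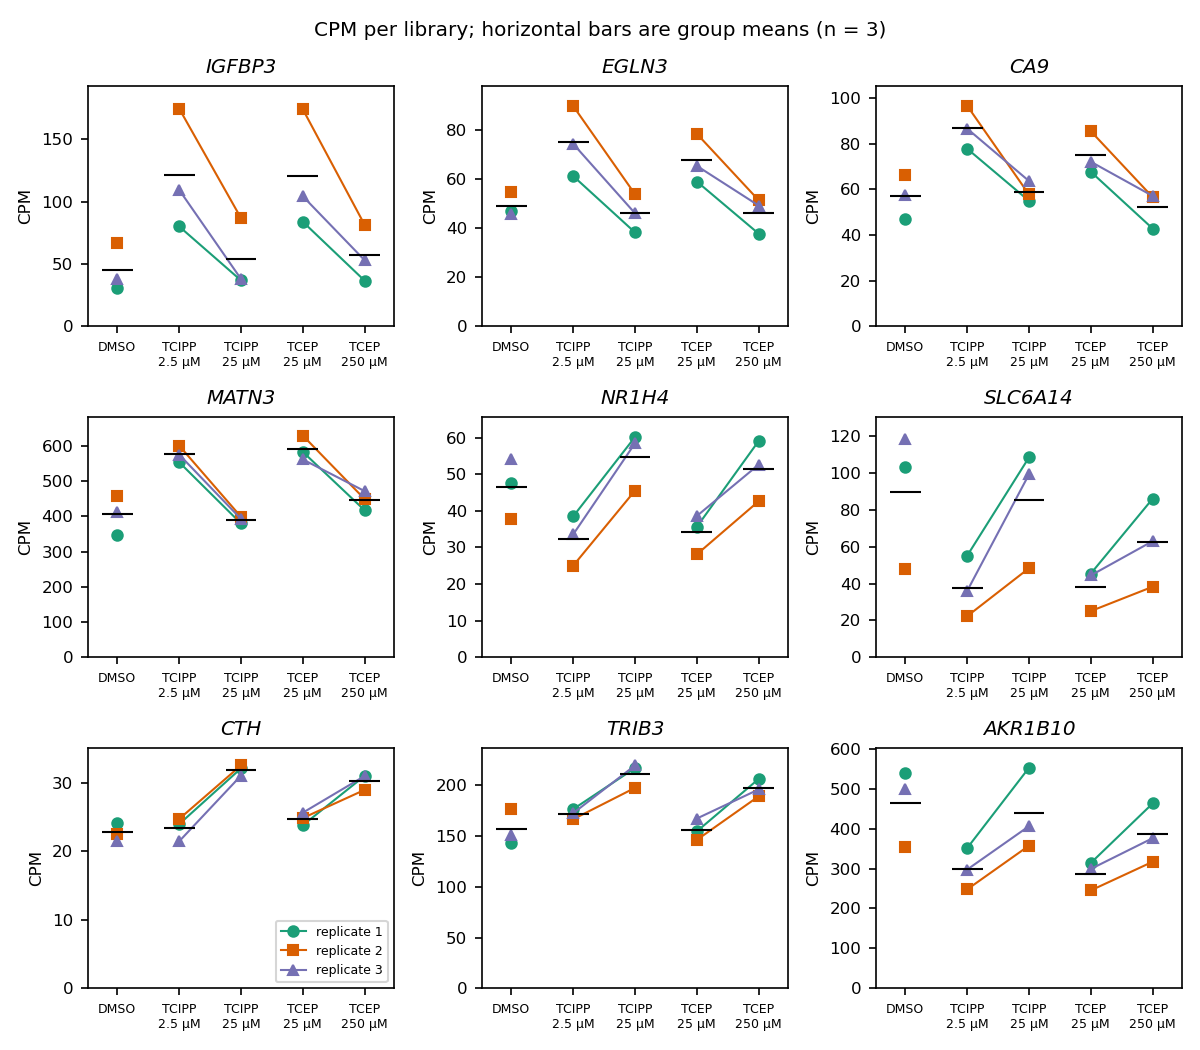
CPM of 9 genes in each of the 15 libraries, with lines joining the same replicate number within a compound and bars at the group means. The top row and MATN3 fall from 2.5 to 25 µM TCIPP in all 3 pairs, and the other 5 genes rise in all 3 pairs.

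Genes of the ATF4 amino acid response were higher at 25 µM. Of 46 tested, 16 were called higher and 0 lower, against 1.54% and 2.31% of all genes, and 42 had a positive log2 fold change, with a median of 0.19. DESeq2 called 15 and limma-voom 16 higher, both called 0 lower, and 1 lower member had an unadjusted edgeR p under 0.05. The called members were 3 of 13 regulators, 5 of 13 amino acid synthesis genes, 3 of 8 carriers and 5 of 12 tRNA synthetases. Over the leave-outs called members numbered 2 to 9, the fewest without replicate 3, while the median stayed between 0.17 and 0.22. Counting all gene reads, introns included, gave 9 called.

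Among the regulators, ATF4 itself had 567, 515 and 475 CPM at 2.5 µM and 639, 629 and 537 CPM at 25 µM. The groups overlapped at the lowest library of 25 µM, replicate 3, and the log2 fold change was 0.21 ± 0.050 (SE, edgeR adjusted p = 0.024). TRIB3, a pseudokinase induced by ATF4, had 0.30 ± 0.074 (SE, edgeR adjusted p = 0.0313) and no overlap. NUPR1, a small stress-induced chromatin protein, had 0.39 ± 0.100 (SE, edgeR adjusted p = 0.0376). Of 9 leave-outs 2 kept the call of ATF4, 2 that of TRIB3 and 1 that of NUPR1.

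Of the synthesis genes, CTH (ENSG00000116761, chr1:70876901-70905534), which makes cysteine from cystathionine, had 23.95, 24.7 and 21.4 CPM at 2.5 µM. At 25 µM it had 32.1, 32.5 and 31.04 CPM, all above the highest library at 2.5 µM. Its log2 fold change was 0.47 ± 0.080 (SE, edgeR adjusted p = 0.00352). Of 9 leave-outs 6 kept the call, and without replicate 3 the adjusted p was 0.156. DMSO libraries had 24.2, 22.5 and 21.6 CPM, at the level of 2.5 µM. PSAT1, of serine synthesis, had 0.39 ± 0.071 (SE, edgeR adjusted p = 0.0048), and MTHFD2, of mitochondrial folate metabolism, had 0.28 ± 0.048 (SE, edgeR adjusted p = 0.00291). SHMT2, a mitochondrial serine hydroxymethyltransferase, had 0.24 ± 0.065 (SE, edgeR adjusted p = 0.0472). ASNS, asparagine synthetase and a usual ATF4 target, did not pass, with 0.20 ± 0.072 (SE, edgeR adjusted p = 0.142).

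The called carriers and synthetases were higher as well. SLC7A11, the cystine carrier, had 0.58 ± 0.11 (SE, edgeR adjusted p = 0.00736). Only 21.2% of its exon reads were unique, so its value is uncertain. SLC6A9, a glycine carrier, had 0.56 ± 0.15 (SE, edgeR adjusted p = 0.0472). GARS (ENSG00000106105, chr7:30634297-30673649), glycyl-tRNA synthetase, had 271, 255 and 247 CPM at 2.5 µM and 323, 325 and 303 CPM at 25 µM. Its groups did not overlap, and the log2 fold change was 0.30 ± 0.049 (SE, edgeR adjusted p = 0.00274). YARS, tyrosyl-tRNA synthetase, had 0.33 ± 0.062 (SE, edgeR adjusted p = 0.00578), WARS 0.39 with adjusted p = 0.0136, and IARS 0.22 with adjusted p = 0.0441.

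Promoter letters are shown for 2 of the synthetases, GARS and IARS, whose stretches hold TGATGNAA, the pattern of the C/EBP-ATF response element. Capitals mark it, and it appears on the other strand in both.
GARS: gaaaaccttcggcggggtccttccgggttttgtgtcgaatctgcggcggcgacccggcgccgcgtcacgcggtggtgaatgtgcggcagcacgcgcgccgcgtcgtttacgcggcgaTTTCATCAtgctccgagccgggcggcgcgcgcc
IARS: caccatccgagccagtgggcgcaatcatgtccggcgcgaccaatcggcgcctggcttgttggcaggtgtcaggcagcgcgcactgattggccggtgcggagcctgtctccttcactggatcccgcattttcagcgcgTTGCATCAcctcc
The GARS stretch is chr7:30594728-30594877, plus strand, with the motif starting 33 bases upstream of the RefSeq start (GRCh38.p14). The IARS stretch is chr9:92293698-92293847, minus strand, with the motif starting 13 bases upstream. Of the 16 called members, 12 had a window and 4 of these held the pattern on either strand, in 4 of 19 windows (21.1%). All tested members had it in 27.4% of 62 windows, and all genes in 3.62% of 35116 windows.

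Most NRF2 targets that were called were higher. Of 38 tested, 12 were called higher and 1 lower, against 1.54% and 2.31% of all genes, with a median of 0.16. Against the DMSO mean, the list median lay at -0.10, -0.19 and -0.16 at 2.5 µM on the log2 scale. At 25 µM it lay at 0.10, -0.02 and -0.10, so it was not above the solvent level in every library. Among aldo-keto and quinone reduction genes 4 of 8 were called, among glutathione genes 4 of 13, and among thioredoxin, NADPH and iron genes 4 higher and 1 lower of 17. AKR1B10 (ENSG00000198074, chr7:134212344-134226160), an aldo-keto reductase of aldehydes and retinals, had 351, 248 and 297 CPM at 2.5 µM and 552, 357 and 406 CPM at 25 µM. Replicate 1 was highest in both groups, the groups did not overlap, and the log2 fold change was 0.55 ± 0.067 (SE, edgeR adjusted p = 0.000306). AKR1C1, a hydroxysteroid reductase, had 0.71 ± 0.11 (SE, edgeR adjusted p = 0.00133), and AKR1C2, its close relative, had 0.64 ± 0.085 (SE, edgeR adjusted p = 0.000538). AKR1C1 and AKR1C2 share much sequence, and 72.2% and 61.96% of their exon reads were unique. GPX2, a glutathione peroxidase, had 0.60 ± 0.088 (SE, edgeR adjusted p = 0.000933), with only 11.7% unique reads, so its value is uncertain. The groups of AKR1C2 and GPX2 overlapped. Mean levels with DMSO were 464, 769 and 367 CPM for AKR1B10, AKR1C2 and GPX2. They were 439, 659 and 338 CPM at 25 µM and 299, 424 and 222 CPM at 2.5 µM. GCLM, the modifier subunit of the rate-limiting enzyme of glutathione synthesis, had 0.48 ± 0.084 (SE, edgeR adjusted p = 0.00403) and no overlap. Its stretch, chr1:93909431-93909580, minus strand in GRCh38.p14, holds TGACNNNGC, the core antioxidant response pattern, on the other strand, starting 34 bases upstream of the start.
GCLM: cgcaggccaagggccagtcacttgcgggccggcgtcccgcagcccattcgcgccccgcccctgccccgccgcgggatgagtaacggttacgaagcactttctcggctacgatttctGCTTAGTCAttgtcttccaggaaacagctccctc
All genes had that pattern in 13.3% of windows, and the called NRF2 members in 33.3% of 12, which is 4 windows. All tested NRF2 members had it in 25.6% of 39.

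HMOX1, heme oxygenase, was the member that fell. Its level was 39.3, 55.00 and 44.6 CPM at 2.5 µM and 29.8, 30.7 and 31.8 CPM at 25 µM, without overlap, and the log2 fold change was -0.57 ± 0.086 (SE, edgeR adjusted p = 0.00129). NQO1, a quinone reductase and usual NRF2 target, did not pass, with 0.18 ± 0.059 (SE, edgeR adjusted p = 0.108). Over the leave-outs called members numbered 5 to 10, the fewest without replicate 3.

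Bile acid genes moved in both directions. NR1H4, which encodes FXR, had 38.5, 25.01 and 33.5 CPM at 2.5 µM and 60.1, 45.5 and 58.4 CPM at 25 µM. The groups did not overlap, the log2 fold change was 0.77 ± 0.079 (SE, edgeR adjusted p = 9.88e-05), and it stayed called in all 9 leave-outs. SLC51B, a subunit of the basolateral bile acid exporter, had 9.30, 6.33 and 8.31 CPM and 14.8, 11.7 and 14.97 CPM, without overlap, and 0.81 ± 0.12 (SE, edgeR adjusted p = 0.000835). NR0B2, which encodes SHP, the repressor that FXR induces, had 0.50 ± 0.12 (SE, edgeR adjusted p = 0.0284), and KLB, the coreceptor of FGF19, had 0.52 ± 0.10 (SE, edgeR adjusted p = 0.00881). BAAT, which joins bile acids to amino acids, was lower, with -1.07 ± 0.25 (SE, edgeR adjusted p = 0.0233), as was SLCO2B1, an organic anion carrier, with -0.58 ± 0.10 (SE, edgeR adjusted p = 0.00412). Of 16 tested, 5 were higher and 2 lower, with a median of 0.07, against 1.54% and 2.31% of all genes, and without replicate 3 there was 1 call. CYP7A1 and CYP3A4 were too low to test.

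Lipid genes were called in both directions. Of 24 apolipoprotein and lipoprotein genes, 6 fell and 1 rose, against 2.31% and 1.54% of all genes, with a median of -0.11. Over the leave-outs called members of this list numbered 0 to 5, the fewest without replicate 3. SCARB1, the HDL receptor, had -0.32 ± 0.054 (SE, edgeR adjusted p = 0.00352). SORT1, a sorting receptor of lipoproteins, had -0.25 ± 0.053 (SE, edgeR adjusted p = 0.0142), APOM, an apolipoprotein of HDL, had -0.27 ± 0.060 (SE, edgeR adjusted p = 0.0173), and MTTP, which loads lipid onto lipoproteins, had -0.31 ± 0.068 (SE, edgeR adjusted p = 0.0164). The calls of SCARB1, SORT1, APOM and MTTP were kept in 7, 3, 2 and 2 of 9 leave-outs. CETP, which exchanges lipid between lipoproteins, had 1.97, 3.32 and 1.45 CPM at 2.5 µM and 0.452, 1.13 and 0.665 CPM at 25 µM, and -1.54 ± 0.38 (SE, edgeR adjusted p = 0.0302). Its level was low and 0 of 9 leave-outs kept the call. APOC2, also called at -0.25, had 1.68% unique reads. GPAM, which starts triglyceride synthesis, had 102, 73.5 and 88.5 CPM and 131, 108 and 133 CPM, and 0.50 ± 0.064 (SE, edgeR adjusted p = 0.000399), without overlap and in all 9 leave-outs. STARD4, a cholesterol carrier, had 0.37 ± 0.067 (SE, edgeR adjusted p = 0.0048), and HSD17B7 and MVK, enzymes of cholesterol synthesis, had 0.45 and 0.34 with adjusted p-values of 0.0414 and 0.0476. Both calls were kept in 0 of 9 leave-outs. Of 28 cholesterol synthesis genes 3 rose and 0 fell in edgeR, 2 and 0 in DESeq2 and 1 and 0 in limma-voom, with 9 higher and 0 lower at an unadjusted edgeR p of 0.05. Of 29 fatty acid and triglyceride genes 2 (6.90%) rose, against 1.54% of all genes. The second, LPIN2, a phosphatidate phosphatase, had 0.21 ± 0.055 (SE, edgeR adjusted p = 0.0387), kept in 0 of 9 leave-outs. Of 21 fatty acid oxidation genes 2 (9.52%) fell, against 2.31% of all genes, the other being VNN1, a pantetheinase, with -0.78 ± 0.17 (SE, edgeR adjusted p = 0.0163) and overlapping groups. CPT1A, which admits fatty acids to mitochondria, had -0.36 ± 0.087 (SE, edgeR adjusted p = 0.0295). Outside the lipid lists G6PC, the last step of glucose release, had -0.68 ± 0.14 (SE, edgeR adjusted p = 0.0119). It was the only call among 17 gluconeogenesis and glycogen genes (5.88% lower and 0 higher, against 2.31% and 1.54% of all genes). The median of that list was -0.02. Of 9 leave-outs 3 kept the call of VNN1, 2 that of CPT1A and 4 that of G6PC.

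Plasma protein genes were called more often lower than higher. Coagulation genes had 4 of 21 called lower (19.0%) and 0 higher, with a median of -0.20, against 3.85% of all genes called in either direction. DESeq2 called 5 lower and limma-voom 4, both called 0 higher, and 1 higher gene had an unadjusted edgeR p under 0.05. Complement and acute phase genes had 4 lower and 1 higher of 30 (16.7%), with a median of -0.15. Over the leave-outs called members numbered 0 to 3 in each list, with 0 without 2.5 µM replicate 2. F10, coagulation factor X, had -0.29 ± 0.057 (SE, edgeR adjusted p = 0.00843). PROC, protein C, had -0.23 with adjusted p = 0.0313, and SERPIND1, heparin cofactor II, had -0.23 with adjusted p = 0.0409 and 26.4% unique reads. VTN, vitronectin, had -0.33 ± 0.065 (SE, edgeR adjusted p = 0.00835) and 48.9% unique reads, so both values are uncertain. CP, the copper protein ceruloplasmin, had -0.29 ± 0.069 (SE, edgeR adjusted p = 0.0293), and FGA and FGG, chains of fibrinogen, had -0.23 and -0.23 with adjusted p-values of 0.0317 and 0.0343. The groups overlapped in F10, CP, FGA and FGG, and did not in PROC, SERPIND1 and VTN. Of 9 leave-outs 5 kept the call of VTN, 2 that of CP, 1 each those of PROC and FGG, and 0 those of FGA and SERPIND1. Of 38 hepatocyte identity and secreted protein genes 4 were called lower, namely IGFBP3, IGF2, IGFBP2 and AHSG, and 0 higher in edgeR, DESeq2 and limma-voom, with 4 higher at an unadjusted edgeR p under 0.05. AHSG, fetuin-A, had 5768, 6672 and 6192 CPM at 2.5 µM and 4872, 4917 and 4812 CPM at 25 µM, without overlap, and -0.35 ± 0.062 (SE, edgeR adjusted p = 0.00417). ALB, albumin, did not pass, with 0.19 ± 0.071 (SE, edgeR adjusted p = 0.153). Of the 11 tested hepatocyte markers 0 were called by edgeR, DESeq2 or limma-voom, and 1 had an unadjusted p under 0.05 in edgeR.

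Of 23 metallothionein and metal genes, 2 were called higher and 4 lower, against 1.54% and 2.31% of all genes. SLC40A1, the iron exporter ferroportin, had 108, 137 and 113 CPM at 2.5 µM and 78.2, 97.4 and 77.8 CPM at 25 µM. It had -0.50 ± 0.070 (SE, edgeR adjusted p = 0.000766), without overlap. MT1E, a metallothionein, had -0.54 ± 0.087 (SE, edgeR adjusted p = 0.00229). SLC39A14, a zinc and iron importer, rose by 0.48 ± 0.084 (SE, edgeR adjusted p = 0.00403), and SLC30A1, a zinc exporter, by 0.39 ± 0.068 (SE, edgeR adjusted p = 0.00388).

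All 13 mitochondrially encoded protein genes had a positive log2 fold change, with a median of 0.24. In 10 of them the groups did not overlap, against 5.84% of all genes that were higher without overlap. Of them 4 were called higher, against 1.54% of all genes. MT-ATP8, a subunit of ATP synthase, had 923, 991 and 1027 CPM at 2.5 µM and 1260.4, 1389 and 1279.7 CPM at 25 µM. The groups did not overlap, and the log2 fold change was 0.42 ± 0.079 (SE, edgeR adjusted p = 0.00691). MT-ATP6 had 0.32 (adjusted p = 0.0242), MT-CYB 0.22 (0.0245) and MT-ND4L 0.25 (0.0343). Of 9 leave-outs 0 kept the calls of MT-CYB and MT-ND4L. Between 0 and 4 members were called over the leave-outs. The share of exon reads from mitochondrial genes was 5.68, 6.08 and 6.37% at 2.5 µM and 6.70, 7.23 and 7.17% at 25 µM in replicates 1, 2 and 3. The mean share was 6.04% ± 0.34 (SD, n = 3) at 2.5 µM and 7.03% ± 0.29 at 25 µM, with an exact two-sided permutation p of 0.1, the smallest that 20 splits allow. Intron reads made 7.82, 7.82 and 8.67% of gene reads at 2.5 µM and 8.60, 8.84 and 9.56% at 25 µM (exact permutation p = 0.2). Both shares moved with the step, and their part in the result was not tested. With mitochondrial genes left out 478 genes were called, and 465 of the 480 main calls tested there remained. Nuclear genes of oxidative phosphorylation had 1 of 77 called lower, ATP5G2, a subunit of ATP synthase (-0.26, adjusted p = 0.0398), with a median of -0.06. All 79 cytosolic ribosomal protein genes had a negative value, with a median of -0.14, and 1 was called lower, against 2.31% of all genes.

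**Figure D4:**
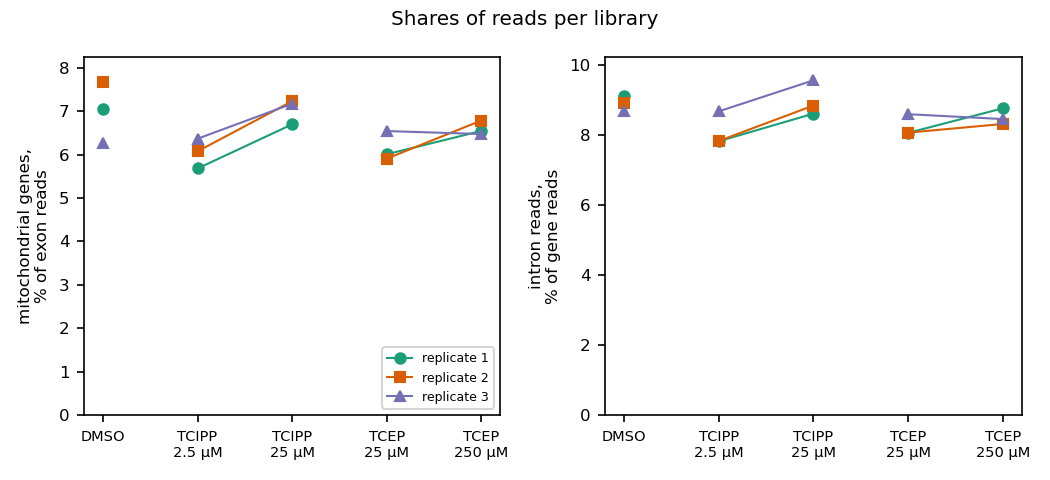
Percent of exon reads from mitochondrial genes and percent of gene reads in introns, for each of the 15 libraries with lines joining the same replicate number. Both shares are higher at 25 than at 2.5 µM TCIPP in all 3 pairs.

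Some groups showed no call. In edgeR, DESeq2 and limma-voom 0 genes were called of 30 heat shock, 55 G2/M, 52 S phase, 31 proteasome and 16 circadian genes, with 3, 6, 5, 1 and 2 at an unadjusted edgeR p under 0.05. Of 13 MHC and antigen presentation genes and 9 replication-dependent histone genes 0 were called by the same tools, with 2 and 1 at an unadjusted edgeR p under 0.05. Only 9 of the 19 listed histone genes could be tested in this RNA, which was selected by poly-A tails. Of 12 urea cycle genes edgeR and DESeq2 called 0 and limma-voom 1 higher, with 3 at an unadjusted edgeR p under 0.05. The median half-width of the 95% interval over all genes was 0.22 on the log2 scale.

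Several lists held 1 or 2 calls, beside 3.85% of all genes called in either direction. The called share was 7.41% of folding, 12.5% of cytochrome P450, 6.67% of conjugation and 3.70% of nuclear receptor genes. It was 3.85% of 26 p53 response genes, whose median log2 fold change was 0.03. Among 23 inflammation and interferon genes it was 8.70%, and among 15 membrane transporter genes 13.3%. XBP1, a transcription factor of the unfolded protein response, had 0.31 ± 0.066 (SE, edgeR adjusted p = 0.0136), and DNAJB11, an endoplasmic reticulum cochaperone, had 0.24 ± 0.059 (SE, edgeR adjusted p = 0.0299), which were 2 of 27 folding genes. Of 16 cytochrome P450 genes CYP3A7, the fetal form, rose (0.88, adjusted p = 0.0235) and CYP2S1 fell (-0.38, adjusted p = 0.0472). GSTK1 and GSTZ1, glutathione transferases, fell among 30 conjugation genes (-0.34 and -0.43). XBP1 stayed called in 4 of 9 leave-outs, CYP3A7 in 2, and DNAJB11, CYP2S1, GSTK1 and GSTZ1 in 1 each. PPARG, the adipogenic nuclear receptor, had 56.5, 61.8 and 53.5 CPM at 2.5 µM and 43.7, 45.3 and 43.2 CPM at 25 µM without overlap, and -0.36 ± 0.066 (SE, edgeR adjusted p = 0.005), the only call among 27 nuclear receptors. TP53INP1, a p53 target and the only call of its list, had 0.87 ± 0.18 (SE, edgeR adjusted p = 0.00984). It had 36.5% unique reads, so its value is uncertain. IFITM2 and IFITM3, interferon-induced membrane proteins, had -0.42 ± 0.070 (SE, edgeR adjusted p = 0.00282) and -0.29 with adjusted p = 0.0214, and 21.8% of the IFITM3 reads were unique. PPARG, TP53INP1, IFITM2 and IFITM3 stayed called in 6, 5, 8 and 1 of 9 leave-outs. ABCC2, the canalicular exporter of conjugates, had 0.20 ± 0.049 (SE, edgeR adjusted p = 0.0287) and no overlap, but 0 of 9 leave-outs kept the call. Genes looked up whatever their value that did not pass were SPP1, DUSP1, CHORDC1, EGR1, HSP90AA1, HMGCS1 and CYP1A1. Their adjusted p-values ran from 0.152 for CYP1A1 to 0.893 for HMGCS1.

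Genes with the largest changes were often low. SLC6A14, an amino acid carrier, had 55.1, 22.3 and 36.00 CPM at 2.5 µM and 108, 48.3 and 99.2 CPM at 25 µM. It rose in each pair, by 1.21 ± 0.13 (SE, edgeR adjusted p = 9.88e-05), and replicate 2, the lowest library in both groups, made the groups overlap. HOXD1, a homeobox factor, had 1.24 ± 0.14 (SE, edgeR adjusted p = 0.000117). SLC6A12, a betaine carrier, had 2.21 ± 0.39 (SE, edgeR adjusted p = 0.00429), from 8.74, 2.71 and 4.16 CPM to 53.2, 7.52 and 12.1 CPM. Replicate 1 at 25 µM was far above the others, and over the leave-outs the log2 fold change ran from 1.47 to 2.75. Without that library the adjusted p was 0.0803. PTAFR, the receptor of platelet-activating factor, had -1.11 ± 0.16 (SE, edgeR adjusted p = 0.000766). EHD2, a membrane-shaping ATPase, had 2.11, 4.97 and 2.89 CPM at 2.5 µM and 0.226, 2.07 and 1.44 CPM at 25 µM, with -1.44 ± 0.33 (SE, edgeR adjusted p = 0.0221). CTSS, the protease cathepsin S, had -1.42 ± 0.36 (SE, edgeR adjusted p = 0.0342), and ZNF320, a zinc finger gene, had 1.66 ± 0.32 (SE, edgeR adjusted p = 0.00825). These 3 had under 10 CPM in every TCIPP library, and the calls of EHD2, CTSS and ZNF320 were kept in 1, 0 and 4 of 9 leave-outs. SLC16A6, a monocarboxylate carrier relative, had 15.9, 62.2 and 30.3 CPM at 2.5 µM and 3.84, 26.1 and 11.9 CPM at 25 µM, with -1.44 ± 0.20 (SE, edgeR adjusted p = 0.000766). Its groups overlapped, all 9 leave-outs kept the call, and 30.9% of its reads were unique, so its value is uncertain. ETNPPL, a phospholyase of phosphoethanolamine, had 1.22 ± 0.32 (SE, edgeR adjusted p = 0.0423), PRIMA1, the membrane anchor of acetylcholinesterase, had 0.98 ± 0.20 (SE, edgeR adjusted p = 0.0121), and FAM43B had 0.99 ± 0.25 (SE, edgeR adjusted p = 0.0376). SLC28A1, a nucleoside carrier, had -1.37 ± 0.33 (SE, edgeR adjusted p = 0.0277), and TSPAN15, a tetraspanin, had -1.30 ± 0.34 (SE, edgeR adjusted p = 0.0441). Of 9 leave-outs 1, 3, 1, 2 and 0 kept these calls in that order. The mean of ETNPPL was 1.17 CPM at 2.5 µM and 2.87 CPM at 25 µM, both below the 5.39 CPM with DMSO. Its pairs 1, 2 and 3 differed by 2.20, 0.42 and 0.70 on the log2 scale. Without replicate 1 its edgeR adjusted p was 0.505. FKBP9L, which had 61.9% unique reads, was lower with -1.49 ± 0.31 (SE, edgeR adjusted p = 0.0129) and overlapping groups. Under 50% of reads were unique for CHRFAM7A, MSANTD3-TMEFF1, ASB3, SLC23A3 and RAB4B-EGLN2, called higher by 1.80, 1.32, 1.30, 1.09 and 1.08, and for FLRT3 and CMC4, called lower at -1.34 and -1.31, so these values are uncertain.

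Levels with DMSO lay nearer to 25 than to 2.5 µM TCIPP for 149 of the 194 higher genes (76.8%) and 253 of the 290 lower genes (87.2%). Over all genes whose 25 µM mean was above or below, the shares were 59.0% and 56.3%. The list medians by library show where this holds. Hypoxia genes lay 0.20, 0.43 and 0.28 above the DMSO mean on the log2 scale at 2.5 µM, and -0.03, 0.15 and 0.08 at 25 µM. ATF4 genes did the opposite, with 0.12, 0.01 and 0.02 at 2.5 µM and 0.30, 0.22 and 0.22 at 25 µM. NRF2 targets lay at -0.10, -0.19 and -0.16 at 2.5 µM and 0.10, -0.02 and -0.10 at 25 µM.

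**Figure D5:**
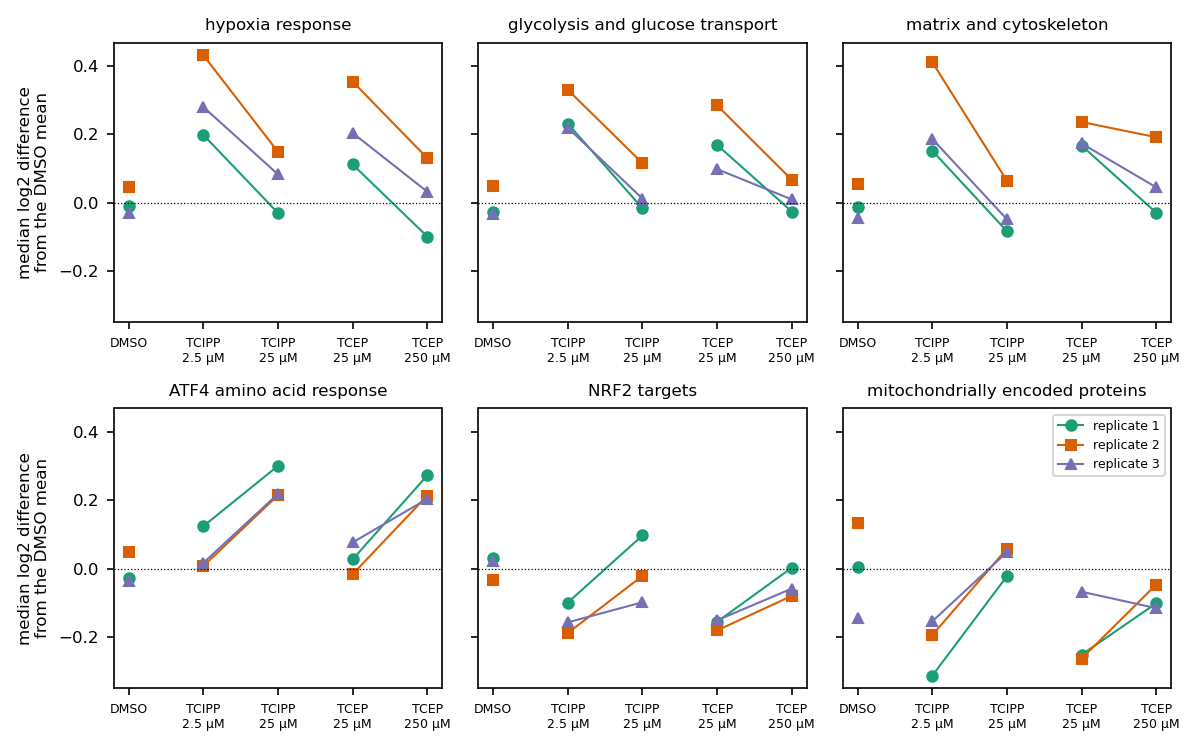
Median over list members of the log2 CPM difference from the DMSO mean, for 6 lists and each of the 15 libraries, with lines joining the same replicate number. Hypoxia, glycolysis and matrix medians stand above 0 at 2.5 µM TCIPP and nearer 0 at 25 µM. ATF4 medians stand higher at 25 than at 2.5 µM TCIPP in every pair. They lie at 0.30, 0.22 and 0.22 at 25 µM TCIPP and at 0.27, 0.21 and 0.20 at 250 µM TCEP.

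The step from 25 to 250 µM TCEP, fitted in the same model with the same block, had 185 calls (1.47%). Its sign was that of the TCIPP step in 184 of 194 and 282 of 290 called genes, and in 4205 of 6243 and 4226 of 6324 of all genes above and below. IGFBP3 had a TCEP step of -1.07 ± 0.081 (SE, edgeR adjusted p = 4.29e-06), EGLN3 of -0.54 ± 0.073 (SE, edgeR adjusted p = 0.00208) and GARS of 0.30 ± 0.048 (SE, edgeR adjusted p = 0.00588). The difference between the steps passed for 0 genes in edgeR, with 408 at an unadjusted p under 0.05, for 1 gene in DESeq2 and 0 in limma-voom. The 1 gene in DESeq2 was CLN3_1, named after its values were seen. Only 2.95% of its exon reads were unique, so its value is uncertain. The doses of the 2 compounds differ, so this does not show that they act alike.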

How the data were processed

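RNA-seq reads of 15 HepG2 libraries were counted per gene by the authors with CLC Genomics Workbench, per the labels and design text, in an unstated version. Reads were placed on hg19 (GRCh37) according to the submitters' processing notes. The deposited tables hold, per the file headers, read counts (total exon, unique exon, gene and intron reads) and RPKM. The deposited RPKM values, scaled by the authors to all gene reads, matched a recomputation from the counts in 100% of genes (relative tolerance 0.0001) and were not tested. Whether counting used the strand is not given, so antisense partners cannot be separated.

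Of 57773 genes listed, 20986 with exon length 0 held 0 reads. Total exon reads (5.35 to 26.8 M, megareads, per library, where 3 reads are 0.112 to 0.56 CPM) were tested with edgeR 4.0.16 (R 4.3.3; limma 3.58.1 and DESeq2 1.42.0 as alternatives). The fit used all 15 libraries, TMM scaling, the filterByExpr filter, groups and the replicate number as a block, with Benjamini-Hochberg adjustment over 12567 genes. CPM use TMM library sizes, except marker sums, which use read totals. The test was checked on simulated counts in which all groups, DMSO included, shared the same replicate effects. That check takes the block as given and cannot show whether it holds in these libraries. Replicate numbers were taken to pair libraries because deviations from group means correlated at 0.286, 0.297 and 0.277 between TCIPP libraries of the same number. Over all same-numbered pairs of treated libraries they were 0.13 to 0.337, but pairs with DMSO had only 0.0164 to 0.158. Which day, plate or lane they shared is not given. Intervals and p-values cover the spread that the groups and the replicate block leave between these libraries. Differences between replicate numbers that the groups share are not in that spread.

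Genes were named by a rule: up to 12 per direction with the largest change at a mean of at least 1 CPM, up to 4 called members with the smallest p in each of 40 lists, and a fixed set. Further called list members are named outside the rule and were chosen after their values were seen. Members and lists were chosen with earlier results of these data known. Genes with under 50% unique reads are uncertain. Alternatives numbered 23, of which 1 (thinning) was added after seeing the data. Of the genes the rule selected, 2 are not reported here.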

Additional observations from a re-analysis of the deposited data

How the results depend on the processing

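The number of called genes depended most on the replicate block: without it 0 genes were called (0 higher, 0 lower). More genes were called with the 6 TCIPP libraries alone (807; 364 higher, 443 lower), with the 12 treated libraries (948; 415 and 533) and with no low-count filter (790; 339 and 451). Thinning all libraries to the shallowest, chosen after seeing the data, left 182 (67 and 115). Leave-outs gave 78 to 317 calls, 31 to 117 higher and 47 to 200 lower. A block for each compound (362), DESeq2 (425), limma-voom (465), RLE scaling (490), library totals (467), a mean of at least 5 CPM (503), unique exon reads (493), gene reads (479) and mitochondrial genes left out (478) stayed within 1.5 times. Every called gene that each alternative tested kept its sign. The difference between the TCIPP and TCEP steps passed for 1 gene with DESeq2, 38 with no filter, 1 without 2.5 µM replicate 2 and 2 without replicate 2, so leave-outs gave 0 to 2. The log2 fold change of HMGCS1, which was not called, changed sign with thinned libraries (-0.0407) and without 25 µM replicate 3 (-0.0253), and the leave-outs reached 0.0589. The cause was not tested. Depth ran from 5.35 M (megareads) in the shallowest library to 26.8 in the deepest, and the thinned count above is the value at the lowest depth.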
